A study of Mus musculus with 12 samples.

Results

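The nuclear genes of the respiratory chain and the ATP synthase were taken from the arrays by gene name. A probe was a member where its name on the array began with Nduf, Cox4 to Cox8, Uqcr, Atp5 or Sdha to Sdhd, or was Cyc1 or Cycs. The rule found 121 probes for 85 genes among 41174 probes for 27566 genes. Of these, 79 member genes, read by 95 probes, passed the filter on low signal and were tested among 10898 genes, so the counts below are over these 79 and not over all members. They comprise 33 genes of complex I, 4 of complex II, 8 of complex III, cytochrome c, 15 of complex IV and 15 of complex V. The names also took in 3 genes that are not subunits: Ndufaf1 and Ndufa12l (now Ndufaf2), which help assemble complex I, and Atp5s (now Dmac2l). Among the members that failed the filter were Cox4i2, Cox8b, Cox8c, Ndufa11 and Cox4nb (now Emc8, not a subunit).

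The respiratory chain sits in the inner mitochondrial membrane. Complexes I and II pass electrons from NADH and succinate to ubiquinone, complex III hands them to cytochrome c, and complex IV, cytochrome c oxidase, gives them to oxygen. Complexes I, III and IV pump protons as they do so, and complex V, the ATP synthase, lets the protons back through its membrane part Fo to drive ATP synthesis in its head F1. Neurons depend heavily on this supply to keep up their ion gradients. Most subunits are encoded in the nucleus, and a small core is encoded by mitochondrial DNA.

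RNA came from Naglu-/- mice and from Naglu+/- littermates, all female, C57BL/6 and 2 months old. Naglu encodes the lysosomal enzyme alpha-N-acetylglucosaminidase, whose loss causes mucopolysaccharidosis IIIB (Sanfilippo syndrome type B). The controls are heterozygous, so no group carried only intact Naglu. Neurons stained with cresyl violet were cut by laser from the medial (MEC) or the lateral (LEC) entorhinal cortex, regions that connect the neocortex with the hippocampus. The small yield of RNA was amplified for dual-dye Agilent arrays. There were, in each region, 3 pairs of mutant and control, and each pair was hybridised to 2 arrays with the dyes exchanged, 12 arrays in all. Nothing in the labels says whether pairs of the same number in MEC and LEC were the same mice.

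All values below are log2 ratios of mutant over control, averaged over the 2 arrays of a pair, unless called a level. Median signals per array were 67 to 92.5 in Cy3 and 44.4 to 54.9 in Cy5. The members were bright: their median rank by signal was the 95.7th percentile of the genes tested, 86.1% of them were above background in all 24 readings (46.4% of all genes tested), and 0 of 79 had a saturated reading. For pair 2 of both regions, the authors' value table and the labelled dyes give opposite signs. The table's sign is used here, and results are repeated with pair 2 turned as labelled, because the direction of those pairs is not settled. Across the 10898 genes, ratios of MEC pair 2 with the table's sign correlated with those of MEC pair 3 at −0.58, and those of LEC pair 2 with LEC pair 3 at −0.47. The brighter Naglu probe stood above background in 12 of 12 Cy3 readings and in 0 of 12 Cy5 readings. Its ratios were −0.04, 0.09 and 0.05 in the MEC pairs and 0.01, −0.04 and 0.06 in the LEC pairs. The sources used here do not say whether that probe lies in the disrupted part of the gene, so it does not check the genotype labels. Captured tissue is a mixture, and in such samples fewer cells of a type and less RNA per cell cannot be told apart.

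Promoters of respiratory chain genes are known for sites of the factors NRF-1 and GABP and, near the start site, YY1. RefSeq promoter windows of build GRCm38.p6, from 250 bases before to 50 after the transcription start, were matched for 66 of the 79 members. The letters GCGCATGC (NRF-1) were found on either strand in 15.2% of these windows, against 2.8% of all 27025 promoters. CCGGAAG (GABP) stood in 24.2% of member windows and 9.12% of all promoters. AAGATGGC (YY1) stood in 13.6% of member windows and 2.88% of all promoters. The forward and reverse NRF-1 letters can overlap, and a window was counted once for a motif. A match is only a run of letters and says nothing of binding. Any of these motifs was found in 30 of the 66 member windows (45.5%) and in 13.8% of all promoters. Ndufa7, Ndufab1 and Ndufb4, among the members of smallest p in the mutant comparisons, had none. The sequences are stretches from 150 bases before to 30 after the start of 5 genes. All 5 hold a match, so they do not stand for the members as a whole. With the table's sign, Ndufa6, Ndufb7, Sdhd and Cox8a had ratios below 0 in all 6 pairs, and Cycs had opposite signs in the MEC and LEC pairs. Capitals mark motif matches.
Ndufa6 (chr15:82354262-82354441, strand -): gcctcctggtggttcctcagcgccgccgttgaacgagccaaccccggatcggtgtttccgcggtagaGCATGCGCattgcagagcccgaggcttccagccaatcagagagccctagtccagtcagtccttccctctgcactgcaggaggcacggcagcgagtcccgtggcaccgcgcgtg
Ndufb7 (chr8:83566608-83566787, strand +): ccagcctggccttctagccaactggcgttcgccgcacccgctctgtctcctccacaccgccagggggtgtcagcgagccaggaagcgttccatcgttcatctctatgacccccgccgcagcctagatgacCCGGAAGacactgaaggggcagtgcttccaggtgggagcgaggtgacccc
Sdhd (chr9:50603820-50603999, strand -): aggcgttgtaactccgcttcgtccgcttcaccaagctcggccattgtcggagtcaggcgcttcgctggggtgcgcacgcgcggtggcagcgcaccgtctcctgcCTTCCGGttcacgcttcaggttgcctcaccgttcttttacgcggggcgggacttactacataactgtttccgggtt
Cox8a (chr19:7217587-7217766, strand -): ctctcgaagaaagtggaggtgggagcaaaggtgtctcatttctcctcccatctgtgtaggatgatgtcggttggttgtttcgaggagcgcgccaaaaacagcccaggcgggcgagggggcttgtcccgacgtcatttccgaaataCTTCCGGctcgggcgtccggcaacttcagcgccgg
Cycs (chr6:50566540-50566719, strand -): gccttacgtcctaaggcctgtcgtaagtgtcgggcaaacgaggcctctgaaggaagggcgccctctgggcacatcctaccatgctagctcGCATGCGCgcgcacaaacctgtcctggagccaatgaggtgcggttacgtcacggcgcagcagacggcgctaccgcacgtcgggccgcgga
In Ndufa6 and Cycs the NRF-1 letters ended 76 and 53 bases before the start. In Ndufb7 and Sdhd the GABP letters ended 14 and 40 bases before it, and in Cox8a they spanned the start itself. Ndufs7, the fifth gene below 0 in all 6 pairs, had the YY1 letters beyond the stretch chosen for printing.

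The first question was whether the members differ between Naglu-/- and Naglu+/- neurons. By limma's test with Benjamini-Hochberg adjustment over all genes, 0 of 79 members passed in MEC, LEC, their average or the MEC minus LEC difference. The same held for all genes, of which 0% were called in each of these 4 comparisons. The lowest adjusted p of a member by limma was 0.85 in MEC and 0.86 for the average, both for Cox8a. At an unadjusted p under 0.05 there were 4 members in MEC (all genes 1.13%), 3 in LEC (1.56%), 6 in the average (2.22%) and 2 for the difference (0.541%). Those in MEC, LEC and the average were all lower in the mutant, and the 2 for the difference were Cox8a, below 0, and Cycs, above 0. These counts depended on the processing. With the scanner software's signals they were 1 in MEC (all genes 1.3%), 0 in LEC (1.1%) and 0 in the average (1.6%), and with the ratios of the deposited value table they were 0 in MEC (1.09%), 0 in LEC (0.927%) and 0 in the average (1.25%). With the 12 arrays as units, 18 of 78 members had an unadjusted p under 0.05 in the average (all genes 3.82%), and 0 passed adjustment. That setting counts the 2 dye-exchanged arrays of a pair as independent, which they are not, so its p-values come out too small.

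More members lay below 0 than above it in both regions. In MEC 58 of 79 were below 0 (all genes 52.7%), in LEC 67 of 79 (all genes 47.6%) and in the average 62 of 79 (all genes 49.4%). The shift was small, with a median of −0.07 in MEC, −0.07 in LEC and −0.09 in the average, where the medians of all genes were −0.00405 for MEC, 0.00454 for LEC and 0.000707 for the average. With the scanner software's own dye-normalised signals 60 of 79 members were below 0 in the average (all genes 47%, member median −0.101), and with the deposited value table also 60 (all genes 46.6%, member median −0.1). In MEC the lean was lost without loess: with each array only centred on its median, 14 members were below 0 in MEC (all genes 28.6%), with medians of 0.0717 for members and 0.0344 for all genes. In LEC, 43 were below 0 in that setting (all genes 30.9%), with medians of −0.00802 for members and 0.033 for all genes. With pair 2 turned as labelled, 52 members were below 0 in MEC (all genes 38.3%) and 48 in LEC (all genes 49.6%), with medians of −0.11 and −0.03. The lean below 0 is therefore a description of these settings and not a tested change.

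Marker genes of other cells were measured in the same captures. The filter kept 7 of 10 markers of excitatory neurons, 6 of 6 of inhibitory neurons and 9 of 10 of microglia. The summed signal of the 9 microglial markers was 1320 to 1610 in mutant MEC and 887 to 974 in control MEC, and 1110 to 1740 in mutant LEC and 807 to 988 in control LEC. The 7 excitatory neuron markers summed to 4300 to 4940 in mutant MEC and 4330 to 4940 in control MEC, and 4350 to 5180 in mutant LEC and 4030 to 5320 in control LEC. For 6 astrocyte markers the sums were 3080 to 3310 in mutant MEC and 2210 to 3230 in control MEC, and 1830 to 4540 in mutant LEC and 2320 to 3480 in control LEC. For 7 oligodendrocyte markers they were 1200 to 1550 in mutant MEC and 1040 to 1620 in control MEC, and 863 to 1060 in mutant LEC and 919 to 996 in control LEC. For 6 inhibitory neuron markers they were 710 to 803 in mutant MEC and 686 to 944 in control MEC, and 663 to 1020 in mutant LEC and 627 to 873 in control LEC. For 5 vessel markers they were 390 to 416 in mutant MEC and 377 to 393 in control MEC, and 356 to 447 in mutant LEC and 350 to 446 in control LEC. The microglial sums did not overlap between genotypes in either region, and the other sums did. Average ratios of the 9 microglial markers ran from −0.02 to 1.78, with 1 of them below 0. How far a single marker carried the microglial sums was not tested. These sums use the table's sign for pair 2: the median ratio of the microglial markers over both regions was 0.17 with it and 0.04 with pair 2 turned. Their part in the ratios of the members was not tested.

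By pair, MEC had member medians of −0.02, 0.01 and −0.20, and LEC had −0.12, −0.06 and −0.04. MEC pair 3 thus carried most of the MEC shift, and without it the median in MEC was 0.0106 for members and −0.0212 for all genes, with 39 of 79 members below 0 (all genes 58.5%). In MEC without that pair 15 members had an unadjusted p under 0.05 (all genes 3.62%), and 5 of them were below 0. Below 0 in all 3 MEC pairs were 16 members (all genes 7.29%) and in all 3 LEC pairs 19 (7.16%). In all 6 pairs 5 members were below 0 (0.716%): Ndufa6, Ndufb7, Ndufs7, Sdhd and Cox8a. With pair 2 turned there were 6 members (4.24%): Ndufa1, Cox6b1, Cox6b2, Cox6c, Atp5c1 and Atp5o. No gene can be in both lists, because turning pair 2 changes its sign. Over pairs 1 and 3 alone, which need no choice for pair 2, 18 members were below 0 in all 4 pairs (7.68%).

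**Figure D1:**
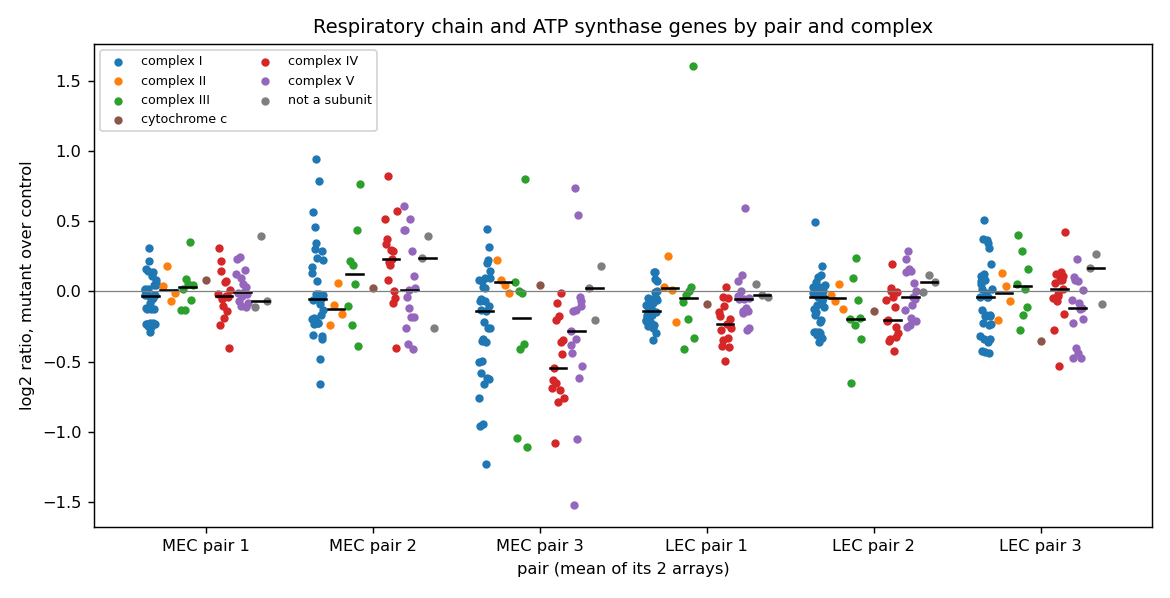
Each point is 1 of the 79 members, plotted as its log2 ratio of mutant over control (vertical axis, mean of 2 arrays) in each of the 6 pairs (horizontal axis), coloured by complex, with a bar at the median of each complex. Members spread most in MEC pair 3, where complex IV has a median of −0.54 and Atp5e lies at −1.52, and the highest point is Uqcrh at 1.61 in LEC pair 1.

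Cox8a encodes subunit VIIIa of cytochrome c oxidase, the form found in most tissues. Its probe lies on chromosome 19 at 7282281 to 7282340 (build mm8). Its ratios were −0.40, −0.41 and −0.34 in the MEC pairs and −0.20, −0.01 and −0.16 in the LEC pairs. In MEC the normalised log2 signals were 9.81, 9.71 and 9.86 in mutants and 10.22, 10.12 and 10.20 in controls. The MEC groups did not overlap, and the ratio was below 0 on 11 of 12 arrays, the exception being an array of LEC pair 2. The mean ratio was −0.38 ± 0.04 (SD, n = 3 pairs) in MEC and −0.12 ± 0.10 (SD, n = 3 pairs) in LEC. Limma's unadjusted p was 0.000548 in MEC and its adjusted p 0.85. With pair 2 turned as labelled the MEC mean was −0.11, and limma's adjusted p was 0.74. Without pair 2 of either region it was −0.37, and with arrays centred on their medians in place of loess −0.15. Its MEC minus LEC difference was −0.26 (limma's unadjusted p = 0.0223, adjusted p = 1). Cox8b and Cox8c, the other forms of this subunit, were below the filter, with at most 11 and 10 of 24 readings above background.

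Ndufb7 and Ndufs7 were chosen after their values were seen, as genes below 0 in all 6 pairs. Ndufb7, an accessory subunit of complex I, had ratios of −0.04, −0.06 and −0.36 in the MEC pairs and −0.26, −0.04 and −0.04 in the LEC pairs. Ndufs7, a core complex I subunit that holds the last iron-sulfur cluster before ubiquinone, had −0.03, −0.32 and −0.10 in the MEC pairs and −0.05, −0.04 and −0.17 in the LEC pairs. In each gene 1 MEC pair and 1 LEC pair lay further below 0 than the rest.

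Ndufa7, Ndufa2 and Ndufa6 are accessory subunits of complex I. Ndufa7 had ratios of −0.25, −0.20 and −0.35 in the MEC pairs and −0.20, 0.07 and −0.22 in the LEC pairs. Only LEC pair 2 was above 0, and the average was −0.19 (limma's unadjusted p = 0.0104, adjusted p = 1). Turned, pair 2 moved the Ndufa7 average to −0.15. Ndufa2 had −0.23, −0.31 and −0.07 in the MEC pairs and −0.18, −0.13 and 0.11 in the LEC pairs. Ndufa6 had −0.23, −0.19 and −0.05 in the MEC pairs and −0.05, −0.01 and −0.13 in the LEC pairs. All 3 genes were below 0 in every MEC pair with the table's sign, and with pair 2 turned the MEC means became −0.13 for Ndufa7, 0.00323 for Ndufa2 and −0.03 for Ndufa6.

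In LEC the smallest p-values among members belonged to Ndufab1, Cycs, Ndufb4 and Sdhd. Ndufab1, the mitochondrial acyl carrier protein, which is also a complex I subunit, had ratios of −0.03, −0.02 and 0.03 in the MEC pairs and −0.17, −0.10 and −0.34 in the LEC pairs. Ndufb4, an accessory subunit of the complex I membrane arm, had −0.29, 0.07 and −0.07 in the MEC pairs and −0.17, −0.29 and −0.17 in the LEC pairs. Both were below 0 in every LEC pair, at limma's unadjusted p of 0.0197 and 0.0385 and adjusted p of 1. Their LEC means were −0.14 for Ndufab1 and −0.01 for Ndufb4 once pair 2 was turned.

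Cycs, the electron carrier cytochrome c, stood apart in sign between regions. Its brightest probe had ratios of 0.08, 0.03 and 0.05 in the MEC pairs and −0.09, −0.14 and −0.35 in the LEC pairs. MEC lay above LEC in every pair, with a difference of 0.24 (limma's unadjusted p = 0.0442, adjusted p = 1). The other Cycs probes, nearer the end of the transcript, did not share this: they gave −0.17, −0.27 and 0.43, and −0.10, −0.27 and 0.24, in the MEC pairs. In the LEC pairs those probes gave 0.13, −0.07 and −0.22, and 0.22, −0.09 and −0.12. The opposite signs therefore held for 1 of 3 probes. Cyc1, cytochrome c1 of complex III, had ratios of −0.13, −0.10 and 0.06 in the MEC pairs and −0.07, −0.20 and 0.05 in the LEC pairs.

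**Figure D2:**
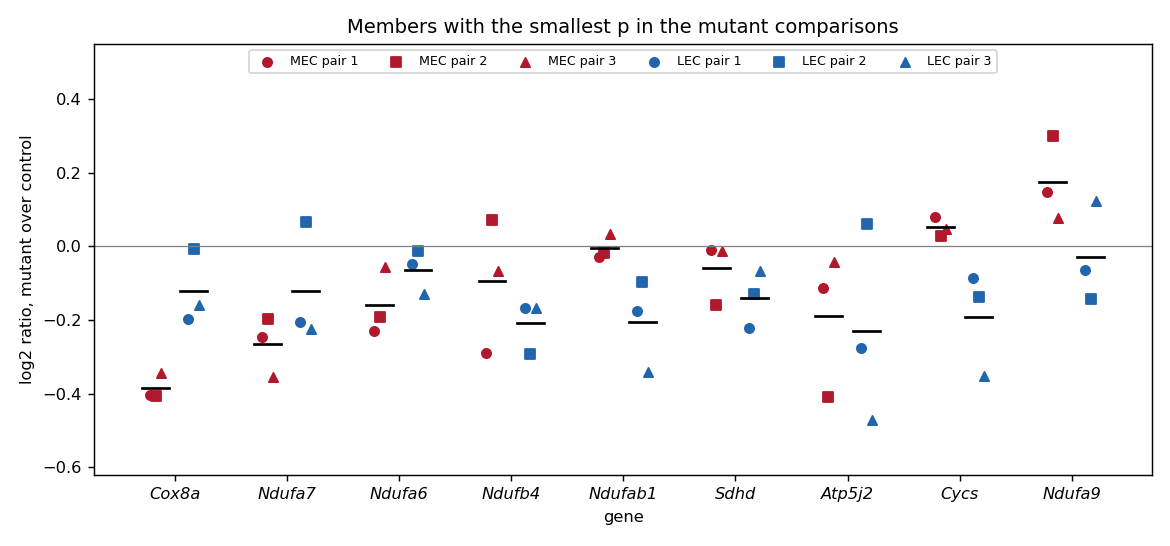
Log2 ratios of mutant over control (vertical axis) of 9 members chosen from those with small unadjusted p-values in the mutant comparisons. Ndufa2 and Cox7c, also under 0.05, are not shown, and Ndufa9 was not under 0.05 in any of these comparisons. Points are pairs (circle 1, square 2, triangle 3), MEC in red left of LEC in blue, and bars are means of 3 pairs: Cox8a lies between −0.34 and −0.41 in MEC, and Cycs lies above 0 in MEC and below 0 in LEC.

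By complex, members of complex I had a median of −0.11 in MEC, with 27 of 33 below 0, and −0.07 in LEC, with 30 of 33 below 0. The 6 core subunits, whose kin are found in bacterial complex I, had medians of −0.04 and −0.03 in MEC and LEC, with 3 of 6 below 0 in each region. The 27 accessory subunits had medians of −0.11 and −0.09, with 24 and 27 of 27 below 0. Over both regions the lowest complex I member was Ndufa7 and the highest Ndufa9, an accessory subunit near the quinone site. Ndufa9 had ratios of 0.15, 0.30 and 0.08 in the MEC pairs and −0.06, −0.14 and 0.12 in the LEC pairs. It was above 0 in every MEC pair, at limma's unadjusted p of 0.0596, and with pair 2 turned its MEC mean was −0.03.

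Complex II, succinate dehydrogenase, also works in the citric acid cycle. Its 4 genes had medians of 0.01 in MEC and −0.01 in LEC. Signal was weak for some: 16 of 24 readings were above background for Sdha, 19 for Sdhb, 23 for Sdhc and 24 for Sdhd. For Sdha the 2 arrays of every pair had opposite signs, and for Sdhb those of every pair but LEC pair 1. Sdha, the flavoprotein, had ratios of 0.04, −0.24 and 0.22 in the MEC pairs and 0.03, −0.02 and −0.20 in the LEC pairs. Sdhb, the iron-sulfur subunit, had 0.18, −0.10 and 0.08 in the MEC pairs and 0.25, −0.07 and 0.13 in the LEC pairs. Turning pair 2 put Sdhb above 0 in all 6 pairs, with an average of 0.14 (limma's unadjusted p = 0.0117, adjusted p = 0.301). Sdhc and Sdhd are the membrane anchors. Sdhc had −0.07, 0.06 and 0.05 in the MEC pairs and 0.01, 0.05 and 0.04 in the LEC pairs, and Sdhd had −0.01, −0.16 and −0.01 in the MEC pairs and −0.22, −0.13 and −0.07 in the LEC pairs. Of the 4 genes, Sdhd had the average furthest from 0, at −0.10.

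In complex III, 5 of 8 genes were below 0 in MEC and 6 of 8 in LEC, with medians of −0.05 and −0.06. The lowest average was that of Uqcr (now Uqcr11), a small accessory subunit, with 0.02, 0.22 and −1.04 in the MEC pairs and −0.41, −0.66 and 0.40 in the LEC pairs. The highest was that of Uqcrh, the hinge protein that helps cytochrome c1 meet cytochrome c. Its brighter probe had −0.06, −0.39 and 0.80 in the MEC pairs and 1.61, −0.19 and −0.11 in the LEC pairs. The value of LEC pair 1 was seen on both arrays, 1.63 and 1.59, and the next highest pair was MEC pair 3. A second Uqcrh probe, nearer the transcript end, gave −0.27, −0.21 and −0.44 in the MEC pairs and −0.21, 0.24 and −0.55 in the LEC pairs. The high value thus belonged to 1 probe and 1 pair.

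In complex IV, 13 of 15 genes were below 0 in MEC and 14 of 15 in LEC, with medians of −0.06 and −0.14. The isoform families varied. Cox4i1, the common form of subunit IV, had −0.02, 0.52 and −0.69 in the MEC pairs and −0.14, −0.06 and −0.05 in the LEC pairs. Cox6a1, the form outside muscle and heart, had 0.15, 0.82 and −1.08 in the MEC pairs and −0.39, −0.35 and 0.13 in the LEC pairs. Cox6a2, known from muscle and heart, had 0.22, 0.09 and −0.65 in the MEC pairs and −0.35, −0.34 and −0.07 in the LEC pairs. Both forms of VIa were thus lowest in MEC pair 3. Cox6b1, the general form of VIb, had −0.05, 0.21 and −0.20 in the MEC pairs and −0.04, 0.00432 and −0.02 in the LEC pairs. Cox6b2, known from testis, had −0.11, 0.19 and −0.09 in the MEC pairs and −0.10, 0.02 and −0.04 in the LEC pairs. Cox7a1, the muscle form of VIIa, had the highest average of complex IV: 0.07, 0.23 and −0.17 in the MEC pairs and 0.03, −0.04 and 0.08 in the LEC pairs. Cox7a2, the general form, had 0.08, 0.29 and −0.70 in the MEC pairs and −0.23, −0.43 and 0.14 in the LEC pairs. Cox7c, a small subunit with no other form among the members, had −0.04, −0.05 and −0.44 in the MEC pairs and −0.39, −0.25 and 0.02 in the LEC pairs, with limma's unadjusted p of 0.0433 for the average. Cox7a2l, which helps complexes III and IV join into supercomplexes, had ratios between −0.11 and 0.08 in all 6 pairs. Its signal was weak, with 11 of 24 readings above background. Its dye-exchanged arrays had opposite signs in every pair, and single arrays ran from −0.263 to 0.358. The small averages of Cox7a2l therefore do not show that its ratio was steady.

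Cox6c, another small complex IV subunit, had the lowest average of all members, −0.25. Its ratios were −0.19, 0.30 and −0.79 in the MEC pairs and −0.49, 0.20 and −0.53 in the LEC pairs. Pair 2 was above 0 in both regions and the other pairs below, so with pair 2 turned Cox6c was below 0 in all 6 pairs. Its average was then −0.42, with the smallest p-value of any member in that setting (limma's unadjusted p = 0.00174, adjusted p = 0.263). Under the turned sign, 17 members had an unadjusted p under 0.05 in MEC, where 11.2% of all genes did, and 14 of the 17 were below 0. In LEC there were 6 such members, where 9.9% of all genes did, and 3 were below 0. None of the 79 passed adjustment by limma there.

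Complex V had medians of −0.06 in MEC and −0.08 in LEC, with 11 and 13 of 15 genes below 0. The 5 genes of the F1 head swung widely between MEC pairs, with medians of 0.13, 0.44 and −0.38, against −0.03, 0.14 and −0.06 in the LEC pairs. The 10 genes of Fo and the stalk had medians of −0.01, −0.05 and −0.12 in the MEC pairs and −0.13, −0.04 and −0.12 in the LEC pairs. Atp5e, the epsilon subunit of F1, had 0.25, −0.04 and −1.52 in the MEC pairs and 0.00344, 0.29 and 0.08 in the LEC pairs. Its value in MEC pair 3 was the lowest of any member in any pair.

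Atp5j2, subunit f of the membrane part, had the lowest average of complex V. Its ratios were −0.11, −0.41 and −0.04 in the MEC pairs and −0.28, 0.06 and −0.47 in the LEC pairs, an average of −0.21 (limma's unadjusted p = 0.0404, adjusted p = 1). Atp5h, subunit d of the stalk, had the highest average, with −0.00103, −0.18 and 0.55 in the MEC pairs and 0.60, −0.10 and −0.08 in the LEC pairs. The 2 arrays of MEC pair 3 differed, at 0.07 and 1.03, and those of LEC pair 1 gave 0.45 and 0.74. A second, overlapping Atp5h probe gave −0.26, −0.39 and 0.04 in the MEC pairs and −0.05, −0.02 and −0.25 in the LEC pairs, so the averages of the 2 Atp5h probes had opposite signs. Atp5g1, Atp5g2 and Atp5g3 encode the same mature subunit c of the proton-carrying ring. Atp5g1 had 0.09, −0.12 and −0.13 in the MEC pairs and −0.14, −0.24 and 0.23 in the LEC pairs. Atp5g2 had −0.03, 0.00935 and −0.34 in the MEC pairs and −0.15, −0.19 and 0.07 in the LEC pairs. Atp5g3 had 0.06, 0.51 and −1.06 in the MEC pairs and −0.05, 0.15 and −0.44 in the LEC pairs. Of the 3, Atp5g3 varied most between pairs.

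The spread of the members differed between pairs. The SD over the 79 members was 0.15, 0.33 and 0.44 in the MEC pairs and 0.25, 0.19 and 0.24 in the LEC pairs, against 0.147, 0.208 and 0.257 in the MEC pairs and 0.225, 0.235 and 0.208 in the LEC pairs over all genes. In MEC pairs 2 and 3, chosen because their members spread most, 33 members exceeded 0.2 in size in both, and 31 of these had opposite signs. That share, 93.9%, is near the 93.7% found over the 1721 genes of the whole array that passed the same limit. What differed was the side: 25 members were above 0 in pair 2 and below 0 in pair 3, and 6 the other way round, where over all genes 591 and 1022 did so. Among the 25 were 8 members each of complexes I and IV, 5 of complex V and 3 of complex III, and none of complex II. Of the 4 complex II genes, however, only 1 was above background in all 24 readings.

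Examples of the 25 are Ndufb9, Ndufb10, Uqcrq and Cox6a1. Ndufb9, an accessory subunit of complex I, had 0.79 in MEC pair 2 and −1.23 in MEC pair 3. Ndufb10, of the same membrane arm, had 0.95 and −0.95. Uqcrq, a small complex III subunit that lies next to cytochrome b, had 0.77 and −1.11. The 6 on the other side were Ndufc2, Sdha, Ndufs6, Ndufs1, Uqcrh and Atp5f1 (now Atp5pb). Ndufs1, the core complex I subunit where electrons pass along iron-sulfur clusters, had −0.66 and 0.44, and Atp5f1, subunit b of the stalk, had −0.37 and 0.74. In the LEC pairs the 25 had medians of −0.17, −0.06 and 0.02, and the 6 had 0.07, 0.06 and −0.35. Across members, ratios of pairs 2 and 3 correlated at −0.70 in MEC and −0.65 in LEC (79 genes, a description, since genes of a pair share its arrays). Turning pair 2 turns the sign of both.

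**Figure D3:**
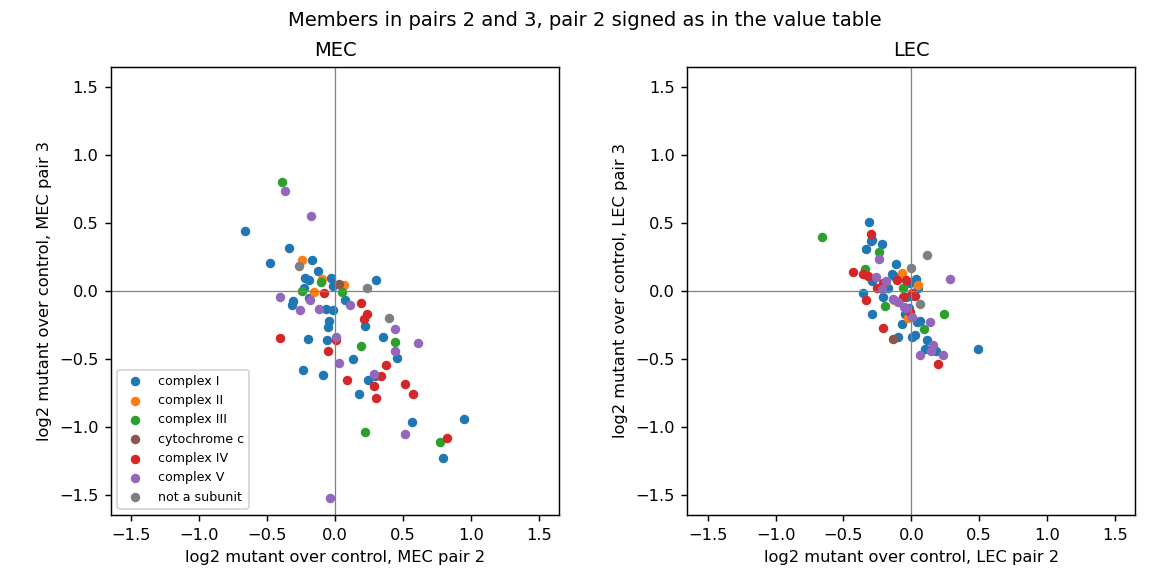
Log2 ratios of mutant over control of the 79 members in pair 2 (horizontal axis, signed as in the value table) against pair 3 (vertical axis), MEC left and LEC right, coloured by complex. Points run from upper left to lower right in both regions, from Uqcrh (−0.39 and 0.80) to Ndufb9 (0.79 and −1.23) in MEC.

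Probes of a single gene could fall on opposite sides of this pattern. For Atp5a1, the catalytic partner subunit alpha of F1, the brighter probe had 0.13, 0.44 and −0.28 in the MEC pairs, and a second probe further along the transcript had −0.19, −0.49 and 0.39. For 12 of 16 further probes of the 13 genes with several kept probes, the average over both regions had the sign of the probe used.

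Other genes of the pathway were followed as lists, and limma's test with adjustment called 0 of their genes in any mutant comparison. Of 31 kept assembly factors, 19 had an average below 0 (median −0.01). Of 66 mitochondrial ribosomal proteins the medians were −0.03 in MEC and −0.04 in LEC, and of 20 import proteins −0.04 and −0.06. Of 17 genes of pyruvate entry and the citric acid cycle the medians were −0.01 and −0.02, of 15 glycolytic genes −0.01 and 0.07, and of 8 carriers and kinases of ATP export −0.08 and −0.01. In MEC pairs 2 and 3 the citric acid cycle list had medians of −0.18 and 0.12, and glycolysis −0.18 and 0.11. The medians of complex IV were 0.23 and −0.54, and those of all genes −0.05 and 0.05. Both lists thus had the signs of all genes, and complex IV had the reverse. The 9 kept nuclear regulators of respiration had medians of −0.03 in MEC and 0.00607 in LEC, with 4 of 9 below 0 in the average. The one with the smallest p, Tfam, which packages mitochondrial DNA, had −0.47, −0.62 and −0.54 in the MEC pairs and −0.16, 0.15 and −0.17 in the LEC pairs (limma's adjusted p for the average = 1). Turned as labelled, pair 2 of Tfam would lie above 0 in MEC and below 0 in LEC. The 3 kept probes for mitochondrially encoded subunits spread widely. CYTB, the mitochondrially encoded core of complex III, had −0.91, −0.91 and 0.42 in the MEC pairs and −0.16, 0.60 and −0.86 in the LEC pairs.

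Some subunits were on the array under older names and so lay outside the rule. Ndufv3 of complex I, also kept by the filter, was 1 of them, and its values are not given here. Atp5mpl, a small ATP synthase membrane subunit, had −0.28, −0.24 and −0.18 in the MEC pairs and −0.35, −0.13 and −0.39 in the LEC pairs. It was below 0 in all 6 pairs, with an average of −0.26 (limma's unadjusted p = 0.00134, adjusted p = 1). Atp5md, another small membrane subunit, had −0.40, −0.20 and −0.21 in the MEC pairs and −0.35, 0.04 and −0.28 in the LEC pairs. Both carry the same doubt over pair 2 as the members. Uqcr10 of complex III had −0.04, 0.25 and −0.91 in the MEC pairs and −0.39, −0.23 and 0.01 in the LEC pairs.

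The second question was whether levels of the members differ between MEC and LEC neurons, whatever the genotype. All MEC arrays were scanned on 1 day and all LEC arrays on another, so region and scan day cannot be told apart, also in the MEC minus LEC differences above. Levels are the mean log2 signal of both dyes, compared over 3 MEC and 3 LEC pairs. After quantile normalisation limma called 24 members higher in MEC (all genes 11.6%) and 3 lower (all genes 14.1%), with a median of 0.13 for members and −0.02 for all genes. With each array scaled to its 75th percentile instead, 48 members were called (all genes 40.7%), of which 3 were higher (all genes 3.68%) and 45 lower (all genes 37%), with medians of −0.28 for members and −0.11 for all genes. The direction of the group as a whole therefore turned with the scaling. Under both scalings, 3 members were called higher (all genes 2.79%) and 3 lower (all genes 13.6%), while 6 were called in opposite directions (all genes 0.422%).

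Ndufs4, Cox5a and Ndufs1 were higher in MEC under both scalings. Ndufs4, an accessory subunit needed for a stable complex I, had levels of 8.35, 8.38 and 8.26 in the MEC pairs and 7.44, 7.40 and 7.64 in the LEC pairs. The groups did not overlap, and the difference was 0.84 (limma's adjusted p = 0.000612) after quantile normalisation and 0.42 (adjusted p = 0.0194) after 75th percentile scaling. Cox5a, a matrix-side subunit of cytochrome c oxidase, had levels of 11.55, 11.32 and 11.64 in the MEC pairs and 10.69, 10.65 and 10.54 in the LEC pairs. Its differences were 0.87 (limma's adjusted p = 0.000821) and 0.29 (adjusted p = 0.00411). Ndufs1 had levels of 7.91, 7.74 and 7.84 in the MEC pairs and 7.29, 7.14 and 7.14 in the LEC pairs, with differences of 0.64 (limma's adjusted p = 0.000926) and 0.27 (adjusted p = 0.0173).

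Cox6a1, Uqcrfs1 and Atp5b were lower in MEC under both scalings. Cox6a1 had levels of 11.90, 11.90 and 12.02 in the MEC pairs and 12.66, 12.56 and 12.13 in the LEC pairs. Its difference was −0.51 (limma's adjusted p = 0.0202) after quantile normalisation and −0.93 (adjusted p = 0.000669) after 75th percentile scaling. Cox6a2, the muscle form, went the other way after quantile normalisation, with a difference of 0.45 (limma's adjusted p = 0.00397), and had 0.21 (adjusted p = 0.094) after 75th percentile scaling. Uqcrfs1, the Rieske iron-sulfur protein of complex III, had −0.19 (limma's adjusted p = 0.048) and −0.70 (adjusted p = 0.000499). Atp5b, the catalytic beta subunit of F1, had −0.20 (limma's adjusted p = 0.0462) and −0.43 (adjusted p = 0.0134).

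Uqcrh and Ndufa4 were called only after quantile normalisation. Uqcrh had levels of 10.26, 10.69 and 10.29 in the MEC pairs and 9.86, 9.23 and 9.60 in the LEC pairs, a difference of 0.85 (limma's adjusted p = 0.0092). Ndufa4, first assigned to complex I and now placed in complex IV, had 0.43 (limma's adjusted p = 0.00149) after quantile normalisation and −0.15 (adjusted p = 0.115) after 75th percentile scaling. By complex, the members called higher after quantile normalisation were 7 of 33 in complex I, 1 of 4 in complex II (Sdhd), 5 of 8 in complex III, Cycs, 4 of 15 in complex IV and 6 of 15 in complex V. In the channels taken apart, 2 members were called in the mutant channel (all genes 3.78%) and 5 in the control channel (all genes 4.93%), none of them lower. Ndufs4 held in both channels, at 0.85 (limma's adjusted p = 0.00897) in the mutant channel and 0.82 (adjusted p = 0.0171) in the control channel. Cox5a passed only in the mutant channel (limma's adjusted p = 0.0182, and 0.0539 in the control channel). Ndufs1 passed only in the control channel (limma's adjusted p = 0.0387, and 0.0858 in the mutant channel). Splitting the channels uses the table's sign for pair 2.

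**Figure D4:**
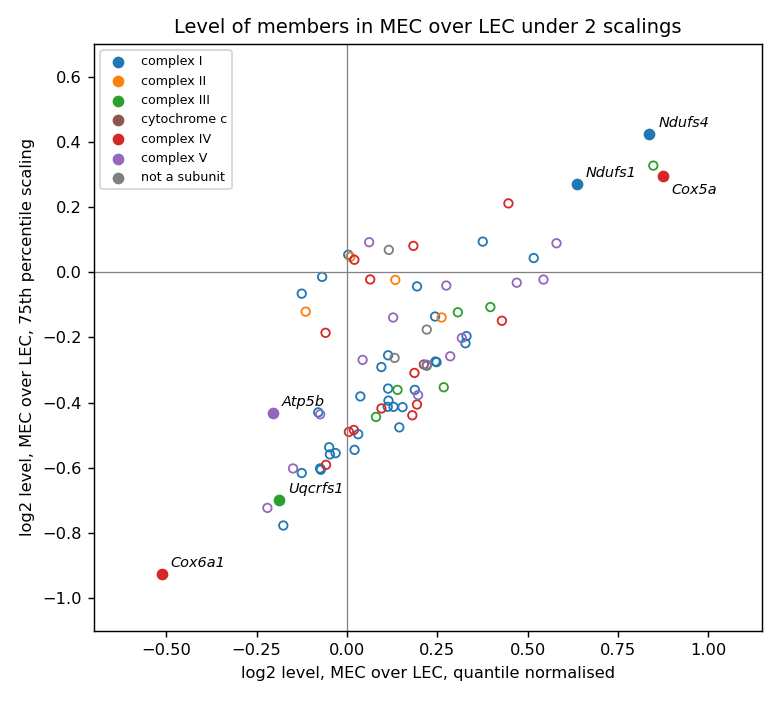
Each point is 1 of the 79 members, plotted as its log2 level in MEC over LEC after quantile normalisation (horizontal axis) and after 75th percentile scaling (vertical axis), coloured by complex. Filled, named points passed adjusted p 0.05 in the same direction under both: Ndufs4, Cox5a and Ndufs1 at the upper right, and Cox6a1, Uqcrfs1 and Atp5b at the lower left.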

How the data were processed

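RNA of 12 labelled dye-swapped hybridisations, 3 mutant and control pairs in each of MEC and LEC, was read on Agilent arrays. Spot signals were deposited as intensity values, mean spot signal and local background of Cy3 and Cy5, read with Feature Extraction 9.5.1.1 per the file headers (8.5.1.1 in the submitters' processing notes). The deposited value table holds log2 ratios of the 2 dyes of each array. Its slope on the scanner ratios was 0.999 to 1, so it is on the log2 scale; its column medians ran from −0.4 to 0.4, and the authors do not state its centring or direction. Both were compared over 9166 bright spots: 5 of 6 LEC files lay under another LEC sample's name, and for pair 2 of both regions the table's sign opposed the labelled dyes. The assignment and sign of the table were used.

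Background was corrected by normexp with offset 50, dyes by loess within arrays, outlier spots were left out, and spots of a probe and then the 2 arrays of a pair were averaged. A probe was kept where 4 or more of the 6 readings of some region and genotype were flagged well above background (12993 of 41174 probes), and the brightest kept probe stood for a gene. Limma 3.58.1 in R 4.3.3 fitted region means over the 6 pairs with 1 shared spread, and separately the quantile-normalised levels, with Benjamini-Hochberg adjustment over 10898 genes at 0.05; the fit was tested on simulated data. Nothing in the sources used here says more of how the pairs were made up, so p-values measure the spread between these samples, and the number of arrays limits the precision. Array names were updated through RefSeq by accession (23483 probes), symbol (6678) or synonym (2887), with 8126 left as named. Probe positions are on build mm8 per the file headers, and exons were not annotated here.

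Members and gene lists were chosen with earlier results of these data known. Named with values were the 4 members of smallest p in each of 5 comparisons, the highest and lowest of each complex, the Sdh genes, Cyc1, Cycs and the isoform families; Ndufb7, Ndufs7, Cox7c, Atp5e, Atp5a1, Uqcrfs1, Atp5b and the examples of MEC pairs 2 and 3 were chosen after their values were seen. Alternatives covered background, normalisation, filter, probe choice, file and dye assignment, units, dyes and each pair left out. Ratios of same-numbered MEC and LEC pairs, taken as deviations from the mean of their region, correlated across genes at −0.18, −0.002 and −0.361. Those means include pair 2, whose sign is not settled, so this cannot tell whether the pairs were the same mice.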

Additional observations from a re-analysis of the deposited data

Results flagged for a closer look

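Cycs was singled out because its effect differed between regions. All 3 MEC pairs were above 0 and all 3 LEC pairs below, and the MEC minus LEC difference was 0.245 (limma's unadjusted p = 0.0442, adjusted p = 1). Among members it was the only gene with this opposition, 1.27% of 79, where 0.798% of all genes tested had opposed regions. Single arrays of Cycs ran from −0.564 to 0.661, both in MEC pair 3, and the other 2 Cycs probes did not show the opposition. The opposition was also absent with pair 2 turned as labelled, where MEC pair 2 falls below 0 and LEC pair 2 above it.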

How the results depend on the processing

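No member passed limma's adjusted test in a mutant comparison under any alternative run. The replicate block, with pair number as a block, left 0 members called in the average and the difference. It left 27 in the level, 23 of which were among the 27 called without it. Levels of same-numbered pairs, as deviations from the mean of their region, correlated across genes at −0.062, 0.018 and −0.032. For the ratios the correlations were −0.18, −0.002 and −0.361, which cannot decide because the sign of pair 2 is not settled. The slide block was not run because each of the 12 arrays had its own slide. With median centring in place of loess, the member median of mutant over control was 0.0717 in MEC, −0.00802 in LEC and 0.025 in the average. In LEC it was −0.0276 with replicate 2 turned as labelled and −0.0306 with files and dyes as labelled. Leaving out 1 pair gave −0.103 to −0.0383 in the average, the end nearest 0 without MEC pair 3. The level median of MEC over LEC was 0.167 over genes above background in all 24 readings and −0.276 with 75th percentile scaling. The number of members called in the level was 48 with 75th percentile scaling (all genes 40.7%), 2 in the mutant channel alone (3.78%) and 5 in the control channel alone (4.93%). It ran from 15 to 25 with 1 pair left out (all genes 15.8% to 23.8%), with 15 without MEC pair 1 (15.8%) and 17 without LEC pair 2 (16.5%). Of the 79 members, 14 had a level above 0 and 19 below 0 under both scalings, and the others changed sign. Over all 10898 genes, 2379 and 5563 kept their sign in this way. The reversals that follow are only those of named genes called under at least 1 scaling. The 75th percentile scaling reversed the level to −0.418 for Cox8a, −0.413 for Ndufa7, −0.291 for Ndufa2, −0.0436 for Ndufa6, −0.283 for Cycs, −0.139 for Sdhd and −0.149 for Ndufa4. It also reversed it to −0.361 for Uqcr, −0.406 for Cox6c, −0.202 for Atp5h, −0.123 for Cyc1, −0.439 for Cox4i1, −0.49 for Cox7a2 and −0.284 for Atp5g2. The cause was not tested. Cy5 signal limits the low genes: 14.8% to 30.4% of probes were well above background in Cy5, and 48.2% to 67.9% in Cy3.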
